A study of Mus musculus with 5 samples.

Results

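Tight junctions seal the space between neighbouring epithelial cells near their apical surface. Claudins are membrane proteins whose extracellular loops form the seal and set which ions pass, occludin and junctional adhesion molecules lie beside them in the membrane, and scaffold proteins such as ZO-1 and cingulin tie them to the actin cytoskeleton. The epiblast and the visceral endoderm (VE) of the egg cylinder are both polarised epithelia, and epiblast cells leave this state when they ingress through the primitive streak. The 9 genes described here are those in the deposited table, among 49671 genes, that carry the names Cldn3, Cldn4, Cldn6, Cldn7, Epcam, Ocln, Tjp1, F11r and Cgn. They were taken by name, and each name matched a single row.

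Expression was measured in 5 mouse embryos of about E6.75, with or without Oct4 in the epiblast. The 2 SO+ embryos (Sox2Cre-/-; Oct4 fl/+) had no Cre and kept an intact Oct4 allele beside a floxed one, and the 3 SO- embryos (Sox2Cre+/-; Oct4 fl/-) carried Cre with a floxed and a null allele, so that a floxed allele was common to all 5 and the strain background was mixed. Sox2 regulatory sequences drive this Cre in the epiblast and not in the VE, and each sample was the hand-dissected epiblast with its VE from 1 embryo, with the extra-embryonic ectoderm (ExE) cut away. In such bulk samples, fewer cells of a type and less RNA per cell cannot be told apart. Oct4 itself (Pou5f1) was at 919.5 and 437.0 CPM (counts divided by library size, with TMM scaling) in SO+ embryos 1 and 2, against 28.01, 12.49 and 44.13 CPM in SO- embryos 1, 2 and 3.

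Depth differed between genotypes, with 27047148 to 27538119 counts in the SO+ libraries and 1117566 to 4191498 in the SO- libraries. The level equal to 3 counts was therefore 0.109 to 0.111 CPM in SO+ embryos but 0.723 to 2.68 CPM in SO- embryos, highest in SO- embryo 2. Intervals on counts are exact Poisson 95% intervals and cover counting error only, since PCR copies could not be recognised. Both SO+ libraries shared one second index and the SO- libraries another, so index and genotype cannot be told apart. Epiblast markers summed to 6442 to 7337 CPM in SO+ and 3391 to 4844 CPM in SO- embryos. Dnmt3b alone gave 3980 and 3276 CPM of this sum in SO+ embryos, against 1720, 1443 and 2310 CPM in SO- embryos 1, 2 and 3. Of 17 epiblast markers tested, 14 were lower and 3 higher in SO- embryos by fold change. Nanog differed little, at 56.1 and 51.7 CPM in SO+ against 53.6, 58.0 and 53.3 CPM in SO- embryos. VE markers summed to 5804 and 6150 CPM in SO+ against 8369, 8474 and 5630 CPM in SO- embryos 1, 2 and 3.

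The promoters of Cldn3 and Cldn4 are shown because the claudin pair are close neighbours in the genome with different readouts. That of Epcam is shown because it holds 2 matches to the E-box bound by Snail factors, repressors of epithelial junction genes. A stretch of Cldn7 and a stretch of Ocln, not shown, hold 2 as well. Each stretch shown is the 250 bases before the RefSeq start site on GRCm38.p6, written 5′ to 3′ on the gene's strand. Capitals mark the E-box CAGGTG on either strand. Cldn3 lies at chr5:134985964-134986213 on the plus strand, Cldn4 at chr5:134946935-134947184 on the minus strand and Epcam at chr17:87635729-87635978 on the plus strand.
Cldn3: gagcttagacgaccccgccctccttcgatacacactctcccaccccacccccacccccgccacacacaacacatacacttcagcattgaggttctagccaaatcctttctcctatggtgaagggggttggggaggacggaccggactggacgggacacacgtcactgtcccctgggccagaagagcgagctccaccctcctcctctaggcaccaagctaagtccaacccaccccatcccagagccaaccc
Cldn4: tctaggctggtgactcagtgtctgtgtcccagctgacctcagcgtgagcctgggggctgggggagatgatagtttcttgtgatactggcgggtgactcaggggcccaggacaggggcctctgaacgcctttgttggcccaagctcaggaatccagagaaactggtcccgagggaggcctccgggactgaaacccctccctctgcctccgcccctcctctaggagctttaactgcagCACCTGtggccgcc
Epcam: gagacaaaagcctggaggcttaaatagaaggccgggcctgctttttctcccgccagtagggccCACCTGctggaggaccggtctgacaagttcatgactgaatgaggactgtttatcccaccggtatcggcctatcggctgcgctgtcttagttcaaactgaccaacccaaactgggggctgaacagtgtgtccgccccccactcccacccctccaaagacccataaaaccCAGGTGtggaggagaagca

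Windows of 300 bases, from 250 before to 50 after the start site, were searched on both strands for 3 short words. RefSeq gave 11 windows for the 9 genes, since Cldn7 and Ocln have an extra start site each. The E-box CAGGTG was in 7 of the 9 genes, and in 8 of 11 windows (72.7%) against 20.2% of all 32851 promoter windows. Tjp1 and Cgn had no match. The Cldn3 match and a second Cldn4 match lay after the start site, outside the stretches shown. The octamer ATGCAAAT, a word bound by POU factors such as Oct4, was in 0 of the 9 genes and in 1.74% of all windows. The Grainyhead word AACCNGTT, bound by factors that maintain epithelial junctions, was in 1 of 9 (Cgn) and in 2.09% of all windows. No motif overlapped another in the windows of these genes. A match describes letters only, and no test was made of it. The 2 Ocln windows overlap and hold a match in common. The RefSeq start sites of Cldn6, F11r and Cgn differ from the GENCODE gene starts. The Tjp1 window rests on an internal start site, with its upstream bases at chr7:65371245-65371494, while the GENCODE gene begins at 65527781 on the minus strand.

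Levels of different genes were compared per kb of exon. Cldn6 was the most abundant of the 9 genes in every embryo, with 538.9 and 572.2 CPM per kb in the SO+ embryos and 589.9 to 696.4 CPM per kb in the SO- embryos. Epcam followed at a mean of 194.4 CPM per kb in SO+ and 198.8 in SO-, then Cldn7 at 86.2 and 99.8, and then F11r at 57.1 and 65.4. These 4 genes kept this order in both genotypes, and the ranges of neighbours in the order did not overlap. The other 5 genes were at least 7.02-fold lower than F11r by their means. In SO+ embryos the means of Cldn3, Cldn4, Cgn, Ocln and Tjp1 were 8.14, 6.82, 6.62, 6.32 and 5.10 CPM per kb, and each of them overlapped the next. In SO- embryos Cldn4, Cgn, Ocln and Tjp1 remained between 5.75 and 6.84 CPM per kb with overlapping ranges. Cldn3 was lowest there at 1.65 CPM per kb, with no overlap with Tjp1, its neighbour in the order.

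**Figure D1:**
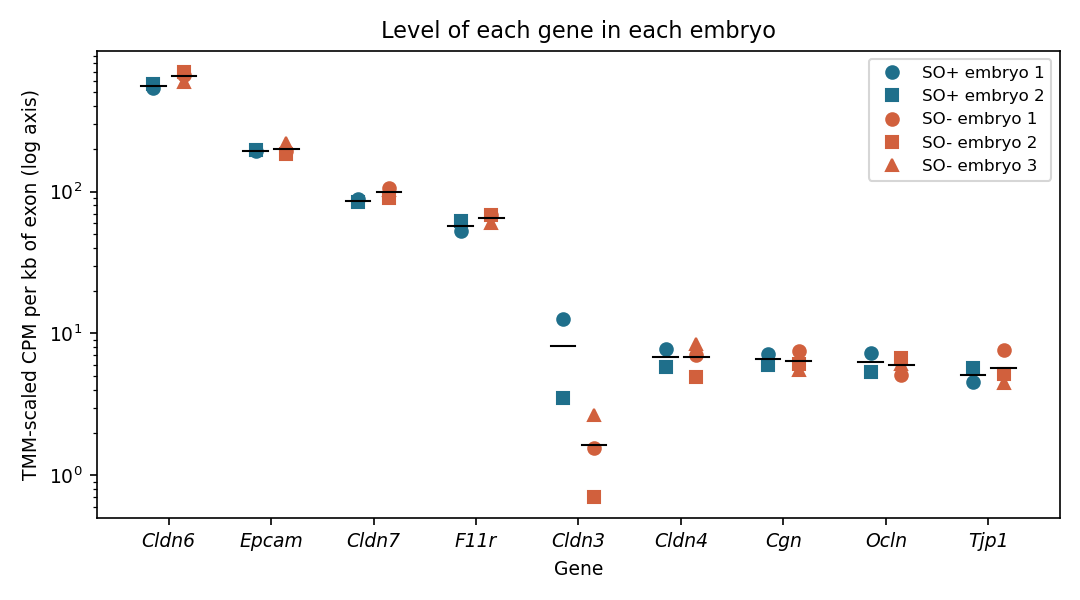
TMM-scaled CPM per kb of exon (log axis) for the 9 genes in each of the 5 embryos, ordered by the SO+ mean. Points are embryos and black lines are genotype means. Cldn6, Epcam, Cldn7 and F11r lie above the other 5 genes in every embryo, and the Cldn3 points are the most widely spread.

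SO- embryos were compared with SO+ embryos to ask how expression differs when Oct4 is absent from the epiblast. None of the 9 genes passed the threshold (0 of 9 with an adjusted p under 0.05, edgeR's quasi-likelihood test), against 283 of all 12067 genes tested (2.35%), of which 171 were higher (1.42%) and 112 lower (0.928%) in SO- embryos. An unadjusted p under 0.05 was found for 2 of the 9, Cldn3 and Cldn6, and for 1656 of all genes tested. DESeq2 and limma-voom also called 0 of the 9. The median log2 fold change, SO- over SO+, was 0.06, against 0.00 over all genes tested. Cldn6 and Cldn7 were higher in every SO- embryo than in both SO+ embryos (2 of 9, against 14.2% of all genes tested), and Cldn3 was lower in every SO- embryo (1 of 9, against 15.1%). With upper-quartile scaling Cldn7 overlapped, at 175.3 CPM in SO+ embryo 1 and 174.5 CPM in SO- embryo 2. For the 8 genes other than Cldn3, the log2 fold changes were between -0.11 and 0.22, and the 95% intervals reached from -0.61 at the lowest to 0.74 at the highest.

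**Figure D2:**
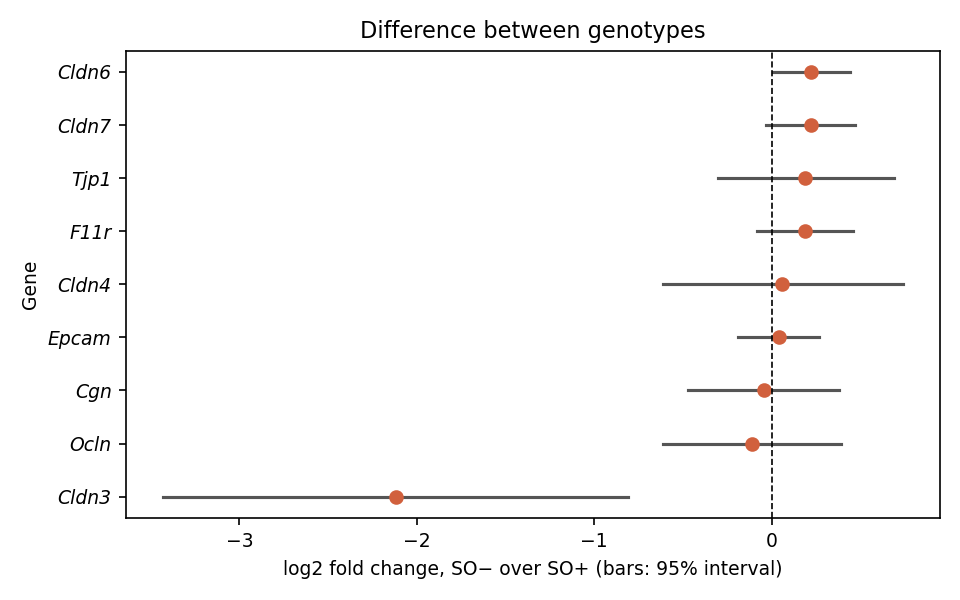
Log2 fold change of each gene, SO- over SO+, with its 95% interval from edgeR's quasi-likelihood fit (2 SO+ and 3 SO- embryos). The Cldn3 estimate lies at -2.12, and the other 8 estimates lie between -0.11 and 0.22. No gene had an adjusted p under 0.05.

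Cldn6 (ENSMUSG00000023906, chr17:23679249-23682446, plus strand) encodes a claudin of embryonic epithelia. It had 25561 and 26533 counts in SO+ embryos 1 and 2 and 4681, 1343 and 4210 counts in SO- embryos 1, 2 and 3. These counts corresponded to 927.5 and 984.8 CPM in SO+ embryos, against 1140, 1199 and 1015 CPM in SO- embryos. The genotypes did not overlap, although SO- embryo 3 was close to SO+ embryo 2, with counting intervals of 984.8 to 1046 CPM and 973.0 to 996.8 CPM. The means were 956.2 ± 40.5 CPM (SD, n = 2) and 1118 ± 93.7 CPM (SD, n = 3), and the difference was 0.22 on the log2 scale (SE 0.10, 95% interval 0.01 to 0.44, edgeR adjusted p = 0.324). Cldn6 is on the same chromosome as Pou5f1, 11.8 Mb from it.

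Cldn7 (ENSMUSG00000018569, chr11:69964779-69967885, plus strand) encodes a claudin that binds the Epcam protein. Its level was 172.4 and 163.3 CPM in SO+ embryos 1 and 2, against 206.1, 176.7 and 200.2 CPM in SO- embryos 1, 2 and 3. All 3 SO- embryos were above both SO+ embryos, but the value of SO- embryo 2 rested on 198 counts, with an interval of 152.9 to 203.1 CPM that holds both SO+ values. Its log2 fold change was 0.22 (SE 0.11, 95% interval -0.03 to 0.47, edgeR adjusted p = 0.435).

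Cldn3 (ENSMUSG00000070473, chr5:134986214-134987472, plus strand) is a single-exon gene for a sealing claudin. It had 442 and 120 counts in SO+ embryos 1 and 2 and 8, 1 and 14 counts in SO- embryos 1, 2 and 3. These corresponded to 16.0 and 4.45 CPM in SO+ embryos, against 1.95, 0.892 and 3.38 CPM in SO- embryos. Every SO- embryo was below both SO+ embryos. The gap was narrow between SO+ embryo 2 (interval 3.69 to 5.33 CPM) and SO- embryo 3 (1.85 to 5.66 CPM), whose intervals overlapped, and the single count of SO- embryo 2 allowed 0.0226 to 4.97 CPM. Within genotypes Cldn3 varied 3.60-fold in SO+ embryos and 3.78-fold in SO- embryos, the widest spreads among the 9 genes.
The Cldn3 means were 10.2 ± 8.19 CPM (SD, n = 2) and 2.07 ± 1.25 CPM (SD, n = 3), and the log2 fold change was -2.12 (SE 0.61, 95% interval -3.43 to -0.81, edgeR adjusted p = 0.100). The estimate depended on which SO+ embryo was included. Without SO+ embryo 1 the log2 fold change was -0.94 (edgeR adjusted p = 0.847), and without SO+ embryo 2 it was -2.75 (edgeR adjusted p = 7.94e-04). Its exon overlaps the antisense gene Wbscr25 over 40 bases, and whether strand was used in counting is not given in the sources used here.

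Cldn4 (ENSMUSG00000047501, chr5:134945119-134946934, minus strand), another single-exon sealing claudin, lies 39.3 kb from Cldn3. Its level was 14.2 and 10.6 CPM in SO+ embryos, against 12.9, 8.92 and 15.4 CPM in SO- embryos 1, 2 and 3. The genotypes overlapped, with the lowest and the highest value both in SO- embryos. The log2 fold change was 0.06 (SE 0.31, 95% interval -0.61 to 0.74, edgeR adjusted p = 0.967). The value of SO- embryo 2 rested on 10 counts, which allowed 4.28 to 16.4 CPM. Per kb, the ratio of Cldn4 to Cldn3 was 0.612 and 1.65 in the SO+ embryos and 4.59, 6.93 and 3.17 in SO- embryos 1, 2 and 3. This ratio is independent of library scaling. The genotypes did not overlap in it, as they did not for Cldn3 alone. The share of all gene pairs without overlap was not counted. Cldn3, the denominator, had 1 count in SO- embryo 2 and 14 counts in SO- embryo 3, and no counting interval was made for the ratio. An exact permutation p can be no smaller than 0.1 for 2 against 3 embryos. None is given because the pair was chosen after the values were seen.

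Claudins as a family had the same leading members in every embryo. The table holds 35 claudin genes, of which 16 had at least 1 count. Cldn6 made up 79.5% to 82.6% of the summed claudin level per kb in the 5 embryos, and Cldn7 10.8% to 14.0%. Cldn4 contributed 0.583% to 1.16%. Cldn3 contributed 1.88% and 0.505% in the SO+ embryos and 0.188%, 0.0841% and 0.365% in SO- embryos 1, 2 and 3. Together the 4 claudins gave 94.0% to 95.7% of the sum.

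**Figure D3:**
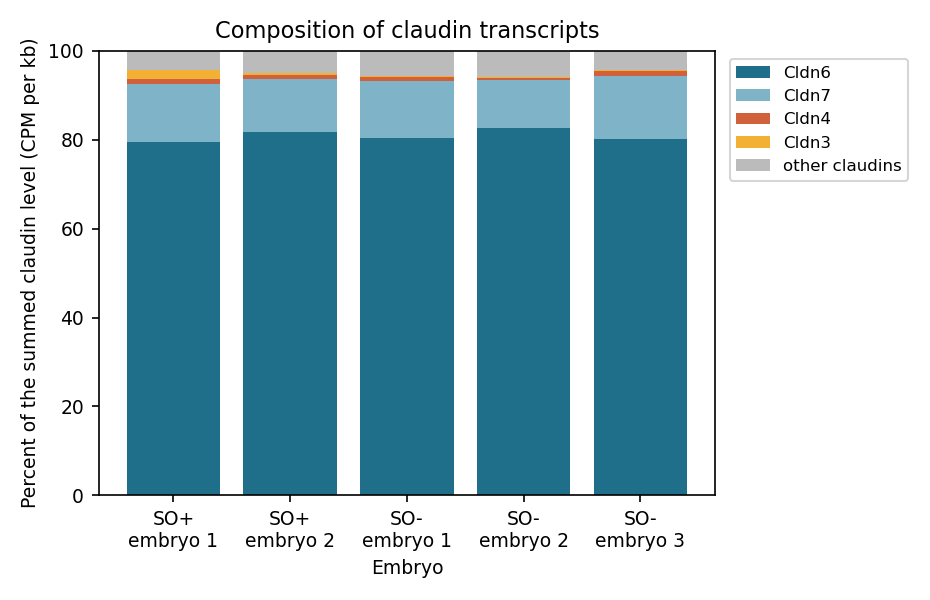
Percent of the summed claudin level (TMM-scaled CPM per kb of exon) contributed by each claudin in each of the 5 embryos, with bars that add to 100%. Cldn6 makes up 79.5% to 82.6% in every embryo, and the Cldn3 segment is largest in SO+ embryo 1 at 1.88%.

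Epcam (ENSMUSG00000045394, chr17:87635979-87651129, plus strand) encodes an epithelial adhesion protein that stabilises Cldn7 in the membrane. Its level was 425.8 and 427.8 CPM in SO+ embryos, against 422.4, 402.5 and 484.2 CPM in SO- embryos 1, 2 and 3. The SO+ values lay inside the range of the SO- values. Its log2 fold change was 0.04 (SE 0.11, 95% interval -0.19 to 0.27, edgeR adjusted p = 0.941). Epcam also lies on chromosome 17, 52.1 Mb from Pou5f1. Per kb, Cldn6 exceeded Epcam 2.78-fold and 2.94-fold in the SO+ embryos and 3.44-fold, 3.80-fold and 2.67-fold in SO- embryos 1, 2 and 3, so this ratio overlapped between genotypes.

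Ocln (ENSMUSG00000021638, chr13:100496507-100552718, minus strand) encodes occludin, a membrane protein of the junction strand. Its level was 30.8 and 22.5 CPM in SO+ embryos, against 21.4, 28.6 and 25.6 CPM in SO- embryos 1, 2 and 3, with overlapping genotypes. The log2 fold change was -0.11 (SE 0.23, 95% interval -0.61 to 0.39, edgeR adjusted p = 0.911).

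F11r (ENSMUSG00000038235, chr1:171437535-171464603, plus strand) encodes JAM-A, an immunoglobulin-like adhesion molecule of the junction. Its level was 139.5 and 164.5 CPM in SO+ embryos, against 181.5, 182.1 and 159.2 CPM in SO- embryos 1, 2 and 3. SO+ embryo 2 was above SO- embryo 3, so the genotypes overlapped. Its log2 fold change was 0.19 (SE 0.12, 95% interval -0.08 to 0.46, edgeR adjusted p = 0.567). Stretches of 50 bases in its transcripts, on either strand, were found in transcripts of 101 other genes. The search was sure to find only shared runs of 99 bases or more, so shorter ones may be missed. Whether shared stretches affected the assignment of its reads cannot be checked.

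Tjp1 (ENSMUSG00000030516, chr7:65296165-65527781, minus strand) encodes ZO-1, the scaffold that links claudins to actin. Its level was 35.3 and 44.4 CPM in SO+ embryos, against 59.9, 40.2 and 34.7 CPM in SO- embryos 1, 2 and 3. SO- embryo 1 was highest and SO- embryo 3 was lowest of the 5. The log2 fold change was 0.19 (SE 0.23, 95% interval -0.30 to 0.69, edgeR adjusted p = 0.806).

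Cgn (ENSMUSG00000068876, chr3:94760069-94786492, minus strand) encodes cingulin, a cytoplasmic protein that binds ZO-1 and actomyosin. Its level was 43.4 and 36.3 CPM in SO+ embryos, against 45.6, 36.6 and 33.3 CPM in SO- embryos 1, 2 and 3. The highest and the lowest value were both in SO- embryos. Its log2 fold change was -0.04 (SE 0.20, 95% interval -0.47 to 0.38, edgeR adjusted p = 0.966). By the search described for F11r, its transcripts shared stretches of 50 bases with 35 other genes.

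Of 28 other claudin and claudin-domain genes, 27 were in the table, 15 had at least 1 count and 4 were tested, with 0 passing the threshold, 0 at an unadjusted p under 0.05 and a median log2 fold change of 0.34. Cldn2, which forms a cation pore, was at 33.4 and 39.1 CPM in SO+ embryos, against 65.8, 66.0 and 28.7 CPM in SO- embryos 1, 2 and 3 (log2 fold change 0.52, edgeR adjusted p = 0.463). SO- embryos 1 and 2 were high for Cldn2 and SO- embryo 3 was lowest of all, as they were for the VE marker sum given above, and the part of VE content in Cldn2 was not tested. Cldn12 was at 50.4 and 62.1 CPM in SO+ embryos, against 71.6, 54.4 and 58.4 CPM in SO- embryos (log2 fold change 0.15, edgeR adjusted p = 0.799). Cldnd1 had a log2 fold change of 0.17 (edgeR adjusted p = 0.814). Cldn9 lies on the opposite strand, 0.138 kb beyond the end of Cldn6, so the 2 genes meet tail to tail. It was at 10.3 and 9.54 CPM in SO+ embryos, against 14.4, 21.4 and 9.41 CPM in SO- embryos 1, 2 and 3 (log2 fold change 0.52, edgeR adjusted p = 0.599). Per kb it was 46.9-fold to 90.5-fold below Cldn6 in the 5 embryos.

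Among 32 other tight junction membrane proteins and scaffolds, 28 were tested, with a median log2 fold change of 0.02. Of these, 1 was called higher in SO- embryos and 0 lower, against 1.42% and 0.928% of all genes tested. The one called was Amot, which encodes angiomotin, a junction-associated scaffold that binds actin and Hippo pathway proteins. Amot was at 197.4 and 267.2 CPM in SO+ embryos, against 416.1, 497.1 and 348.9 CPM in SO- embryos 1, 2 and 3. All 3 SO- embryos were above both SO+ embryos, and the log2 fold change was 0.85 (SE 0.16, edgeR adjusted p = 0.0125). The call was lost without SO- embryo 1 (edgeR adjusted p = 0.163), without SO- embryo 2 (edgeR adjusted p = 0.193) and with limma-voom (adjusted p = 0.0865). The most abundant of the list beside Amot were Lsr, a receptor of tricellular junctions (log2 fold change 0.25, edgeR adjusted p = 0.436), and Vapa, a membrane protein that binds occludin (log2 fold change 0.00, edgeR adjusted p = 0.996).

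Of 22 genes of the apical-basal polarity complexes, 18 were tested, with a median log2 fold change of -0.05. Among them 1 was called higher in SO- embryos and 0 lower, against 1.42% and 0.928% of all genes tested. Crb2, a Crumbs protein of the apical membrane that takes part in the ingression of mouse epiblast cells, was at 13.8 and 15.4 CPM in SO+ embryos, against 44.8, 59.8 and 27.3 CPM in SO- embryos 1, 2 and 3. The genotypes did not overlap, and SO- embryo 3 was the closest to the SO+ embryos. The log2 fold change was 1.53 (SE 0.28, edgeR adjusted p = 0.0118). The Crb2 call was lost without SO- embryo 1 (edgeR adjusted p = 0.166), without SO- embryo 2 (edgeR adjusted p = 0.164) and with limma-voom (adjusted p = 0.0641). The most abundant polarity genes, Lin7c, Llgl1 and Cdc42, had log2 fold changes of 0.42, -0.06 and -0.06 (edgeR adjusted p = 0.228, 0.896 and 0.866).

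Of 15 partners and proteases of Epcam, 13 were tested and 0 passed the threshold (2 had an unadjusted p under 0.05), with a median log2 fold change of 0.20. Every SO- embryo was above both SO+ embryos for 6 of the 13 and below both for 0, against 14.2% and 15.1% of all genes tested. The most abundant of these were the protease inhibitors Spint1 and Spint2 (log2 fold changes 0.05 and 0.20, edgeR adjusted p = 0.936 and 0.445) and the membrane protease Prss8 (log2 fold change 0.40, edgeR adjusted p = 0.1997). Of 24 transcription factors that act on epithelial junction genes, 15 were tested and 0 passed (3 had an unadjusted p under 0.05), with a median log2 fold change of 0.23. Snai1, which encodes the repressor Snail, was at 24.7 and 25.2 CPM in SO+ embryos, against 29.48, 21.42 and 20.98 CPM in SO- embryos 1, 2 and 3 (log2 fold change -0.04, edgeR adjusted p = 0.977). DESeq2 and limma-voom also called 0 genes in both of these lists and among the other claudins. Without SO- embryo 3, 1 other claudin was called, in a fit that called 263 of all genes. Foxa2 and Tcf3 had log2 fold changes of 0.60 and 0.03 (edgeR adjusted p = 0.322 and 0.957).

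**Figure D4:**
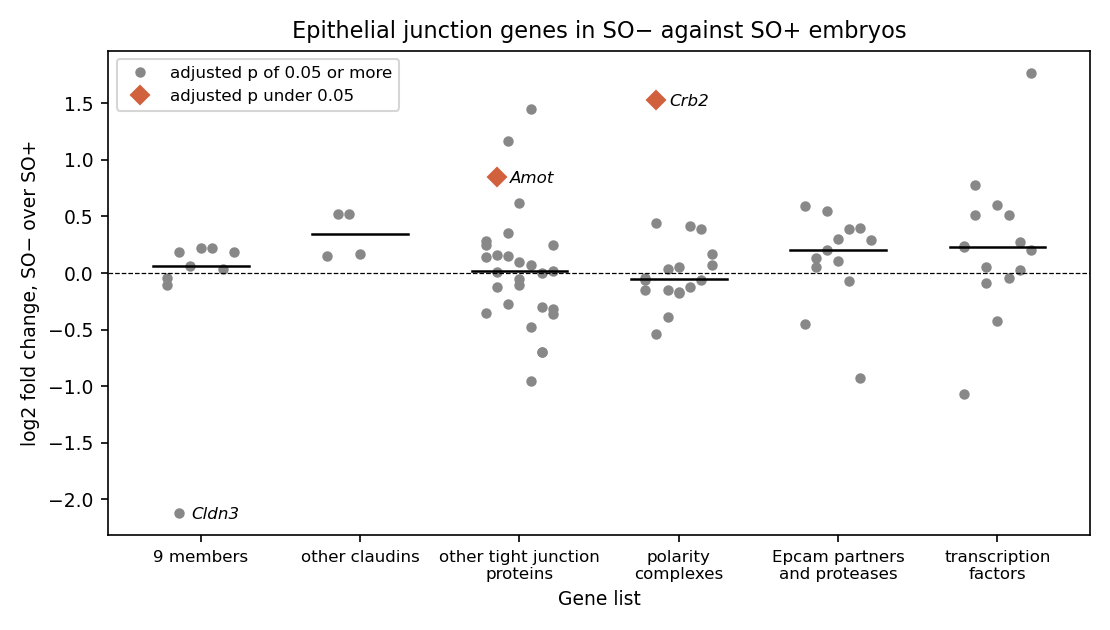
Log2 fold change, SO- over SO+, of each tested gene in the 9-gene set and in 5 lists of related genes. Each point is 1 gene, black lines are medians, and diamonds are genes with an adjusted p under 0.05, which are Amot and Crb2. The 9-gene median lies at 0.06 and Cldn3 at -2.12.

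Markers of the cells that a sample could hold were examined beside these values. Of all genes tested, 1.42% were called higher and 0.928% lower in SO- embryos. Totals over all genes for fits that left out 1 embryo are given in the closing part on processing. Of 17 tested epiblast markers 5 were lower in SO- embryos, namely Utf1, Dnmt3b, Dnmt3a, Slc7a3 and L1td1, with log2 fold changes of -2.08, -0.99, -0.73, -1.64 and -1.84 (edgeR adjusted p of at most 0.0424), while Fgf5, among the most abundant, had one of 0.38 (edgeR adjusted p = 0.274). The number of epiblast markers called was 2 without SO- embryo 1, 3 without SO- embryo 2 and 8 without SO+ embryo 2. L1td1 passed in every alternative fit, whereas Dnmt3a was lost with limma-voom (adjusted p = 0.167) and without SO+ embryo 1, SO- embryo 1 or SO- embryo 2 (edgeR adjusted p = 0.1, 0.364 and 0.323). Cdh1, which encodes E-cadherin of the adherens junction, was at 374.1 and 439.0 CPM in SO+ embryos, against 347.9, 373.9 and 426.8 CPM in SO- embryos (log2 fold change -0.09, edgeR adjusted p = 0.845). Of 23 tested VE markers, 20 were higher and 3 lower in SO- embryos by fold change. Their median log2 fold change was 0.38, against 0.00 over all genes tested. An unadjusted p under 0.05 was found for 8 of the 23, and for 1656 of all 12067 genes tested. Spink1 alone was called (log2 fold change 0.63, edgeR adjusted p = 0.00580), and Apoe and Apoa1 had log2 fold changes of 0.24 and 0.42 (edgeR adjusted p = 0.482 and 0.319). The VE count was 0 without SO- embryo 1 or SO- embryo 2 (Spink1 edgeR adjusted p = 0.0868 and 0.0903), 7 without SO+ embryo 2 and 6 when SO- embryo 3 was left out. Of 12 tested ExE markers 2 were higher in SO- embryos, among them Hand1 (log2 fold change 3.04, edgeR adjusted p = 0.00754), with 0 called without SO- embryo 1 or SO- embryo 2 and 1 without SO+ embryo 1 or SO- embryo 3. Nrk and Tex19.1 had values of 0.52 and 0.66 (edgeR adjusted p = 0.523 and 0.315), and the list summed to 137.7 and 163.7 CPM in SO+ and 201.9, 285.6 and 181.8 CPM in SO- embryos. Of 17 tested streak and mesoderm markers 3 were higher, Fgf8, Cdh2 and Hand1 (the first 2 with log2 fold changes of 1.26 and 0.97, edgeR adjusted p = 1.25e-04 and 0.0445). Eomes and Mixl1 had log2 fold changes of 0.05 and -0.44 (edgeR adjusted p = 0.939 and 0.375). The streak and mesoderm count was 1 without SO- embryo 1 or SO- embryo 2, 2 without SO- embryo 3 and 7 without SO+ embryo 2. Fgf8 passed in every alternative fit, whereas Cdh2 was lost with limma-voom (adjusted p = 0.227) and without SO+ embryo 1 or SO- embryo 1, 2 or 3 (edgeR adjusted p = 0.196, 0.309, 0.345 and 0.0653). Maternal decidua and blood markers summed to 10.02 and 13.66 CPM in SO+ and to 15.2 to 20.3 CPM in SO- embryos, and 0 of the 2 tested passed (0 with an unadjusted p under 0.05), while DESeq2 called 1 gene of that list and limma-voom 0. The part of these marker differences in the levels of the 9 junction genes was not tested.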

How the data were processed

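Poly(A) RNA of 2 SO+ and 3 SO- embryos was amplified by SmartSeq2. After adapter trimming, reads were mapped by the authors to GRCm38/mm10 (STAR) and assigned to Ensembl genes (HTSeq), and the authors deposited whole-number counts per gene, without normalization. Groups and replicate numbers came from the sample labels, and all 5 embryos were used. Same-numbered embryos are different animals, and p-values measure the spread between these embryos.

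Counts were analysed in R 4.3.3 with edgeR 4.0.16 (TMM scaling, filterByExpr with a minimum count of 10, quasi-likelihood test, genotype as the only term) over 12067 of 49671 genes, with Benjamini-Hochberg adjustment and a threshold of 0.05. The test was run on simulated data first. The SE of a log2 fold change is its size over the square root of F. Alternatives used DESeq2 1.42.0, limma 3.58.1 (voom), other scalings and filters, thinned SO+ libraries, a replicate block and each embryo left out. Exon lengths and coordinates came from GENCODE M21 (99.3% of genes matched) and promoters from RefSeq.

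The 9 genes and the lists were chosen with earlier results of these data known. From each list, genes with an adjusted p under 0.05 and the 3 most abundant per kb were named where tested. Tjp3, Jam3, Arhgef18, Afdn, Micall2, Cldn9, Cdh1, Grhl2 and Grhl3 and the Cldn4 to Cldn3 ratio were chosen after values were seen. Cldn25 and Spink3 were not analysed here, and some genes of the lists are not reported here.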

Additional observations from a re-analysis of the deposited data

How the results depend on the processing

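Under 15 alternatives, the log2 fold changes of Cldn3 (-2.91 to -0.94), Cldn6 (0.17 to 0.29), Cldn7 (0.16 to 0.27) and F11r (0.07 to 0.31) kept their sign. Deviations of same-numbered embryos had an r across genes of 0.00 (number 1) and 0.12 (number 2). For embryos of different genotype and number it lay between -0.14 and 0.14. Deviations of the 2 SO+ embryos from their mean mirror each other, so these r values cannot decide whether the numbers mark pairs. The numbers were not taken as pairs. With a replicate block, which leaves SO- embryo 3 without a partner, 929 genes were called and 2 of the 9, Cldn3 (-2.91, adjusted p = 9.29e-04) and Cldn6 (0.29, adjusted p = 0.0475), while Cldn4, Epcam and Cgn turned to -0.18, -0.05 and 0.05. Beside these 929 of all 12067 genes tested, the block called 1 of 4 other claudins, 3 of 28 other tight junction genes and 2 of 18 polarity genes. It called 2 of 13 Epcam partners and 3 of 15 transcription factors. Of the markers it called 13 of 23 VE, 3 of 12 ExE, 11 of 17 epiblast and 9 of 17 streak and mesoderm genes. With a robust estimate of spread 2 epiblast and 2 streak and mesoderm markers were called, and Cdh2 was also lost with library totals (adjusted p = 0.0509). Thinning left 1 ExE marker called, and limma-voom 1. With upper-quartile scaling 2 of the 9 genes, in place of 3, did not overlap between genotypes. Limma-voom called 91 genes. Thinning the SO+ libraries turned Cldn4 to -0.02. Leaving out 1 embryo gave 35 genes (without SO- embryo 2) to 573 (without SO+ embryo 2), 46 without SO- embryo 1 and 180 without SO+ embryo 1. Without SO- embryo 3, 263 genes were called. Leaving out any 1 SO- embryo gave 0 of the 9 genes past the threshold. Leaving out any 1 embryo gave 3 to 5 genes whose genotypes did not overlap (5 without SO+ embryo 2 or SO- embryo 3). Fewer embryos separate more easily, and the shares of all genes (14.2% and 15.1%) are for all 5 embryos, so they cannot be set beside these counts. Medians were 0.04 to 0.16 (0.16 without SO- embryo 2). The signs of 5 genes turned when 1 embryo was left out, with ranges of -0.13 to 0.28 for Cldn4, -0.06 to 0.08 for Epcam, -0.22 to 0.09 for Cgn, -0.32 to 0.13 for Ocln and -0.12 to 0.37 for Tjp1. Causes were not tested beyond the embryos named. Depth limits Cldn3 and Cldn4 most, with 1 and 10 counts in SO- embryo 2.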

Other observations

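Some tight junction genes outside the 9 did not overlap between genotypes without passing the threshold. Lsr, Afdn and Micall2 were among those higher in SO- embryos (log2 fold changes 0.25, 0.25 and 1.45, edgeR adjusted p = 0.436, 0.479 and 0.538). Micall2 had 3 counts in SO- embryo 2. Tjp3, Jam3 and Arhgef18 were among those lower. Tjp3, which encodes ZO-3, was at 14.2 and 12.7 CPM in SO+ embryos, against 8.28, 5.36 and 6.51 CPM in SO- embryos 1, 2 and 3 (log2 fold change -0.95, edgeR adjusted p = 0.2003). The Tjp3 value of SO- embryo 2 rested on 6 counts. Jam3, an adhesion molecule related to F11r, was at 39.2 and 35.2 CPM in SO+ embryos, against 22.2, 17.0 and 27.0 CPM in SO- embryos (log2 fold change -0.70, edgeR adjusted p = 0.134). Arhgef18 was at 34.6 and 31.8 CPM in SO+ embryos, against 24.4, 18.7 and 17.4 CPM in SO- embryos (log2 fold change -0.70, edgeR adjusted p = 0.143). In this list 4 of 28 tested genes were higher and 7 lower in every SO- embryo, beside 14.2% and 15.1% of all genes tested.

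Grhl3, a Grainyhead factor, was at 0.871 and 1.89 CPM in SO+ embryos, against 5.85, 3.57 and 4.34 CPM in SO- embryos 1, 2 and 3 (log2 fold change 1.77, edgeR adjusted p = 0.202). The Grhl3 values of SO- embryos 1, 2 and 3 rested on 24, 4 and 18 counts. In SO- embryo 2 a level of 2.68 CPM equals 3 counts. Grhl2 was at 24.1 and 14.5 CPM in SO+ embryos, against 27.8, 11.6 and 26.3 CPM in SO- embryos (log2 fold change 0.27, edgeR adjusted p = 0.798).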
